A study of Malus domestica with 12 samples.

Results

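Peel of Granny Smith apples picked from a single orchard, plot 24, in 2015 and in 2014 was compared on 2 Agilent 2-colour arrays. Both harvests were taken at early physiological maturity, before any storage. The 2015 fruit (2015-P24) belonged to a batch labelled high scald, and the 2014 fruit (2014-P24) to one labelled low scald. The comparison takes up 4 of the 12 one-channel samples of the series, which were selected by their year, plot and replicate letter. The other 8 channels hold 2015-P31 with 2014-P36 and 2017-P31b with 2014-P24. All fruit were of wild-type Granny Smith trees at 1 station.

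Superficial scald is a browning of the apple skin that appears after cold storage. It is tied to oxidation products of the terpene farnesene and to phenolic oxidation in the cells under the cuticle. Heat shock proteins (HSPs) are chaperones that hold or refold damaged proteins, and heat shock factors switch on their genes. The study asked whether peel of fruit that scald later already differs at harvest. With plot 24 on both sides, the orchard was the same and the year was not. Year, season weather and scald class changed together and cannot be told apart.

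Each harvest was represented by 1 pool of peel from several fruit. Array a held 2015-P24 in Cy3 and 2014-P24 in Cy5, and array b held the same samples with the dyes swapped. The arrays repeat the measurement and not the harvest, so n = 1 peel sample per year, no test between years was possible and no p-value is given. The spread printed below is that between the 2 arrays. Every ratio is log2 of 2015-P24 over 2014-P24, so that a negative value means a lower signal in 2015-P24. A probe passed the 2-fold rule when its log2 ratio was at least 1, or at most -1, on each array and its signal was well above background in both channels of the brighter sample. Signals are log2 normalized intensities and are compared between samples of 1 probe, never between probes. Fewer cells of a type and less RNA per cell give the same change in such bulk samples.

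Of 133709 probes, 133571 gave a ratio on both arrays, and 31606 were well above background in both channels of at least 1 harvest. Between 22.4% and 29.6% of probes were well above background in a channel. The median log2 ratio of the 31606 was 0.02, their 5th to 95th percentiles ran from -0.47 to 0.54, and a probe differed between arrays with an SD of 0.19. The ratios of the 2 arrays correlated with r = 0.71 over these probes, which share the RNA of both samples. Probe names could not be tied to genes for most of the array. The peel label could be checked against 3 probes matched by cuticle and wax keywords at most, among them a peroxisomal thiolase. One of them, for the 3-ketoacyl-CoA synthase KCS13 (MD02G1050100), had signals of 8.67 and 8.61 in 2015-P24, against 10.05 and 9.90 in 2014-P24. It belongs to the enzymes that lengthen fatty acids for the cuticle.

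In all, 334 probes were lower in 2015-P24 by the 2-fold rule, which is 1.06% of the 31606, and 174 were higher, which is 0.551%. Of the lower probes 304 read the sense strand, 1.16% of the sense probes above background, and of the higher ones 151, or 0.576%. The lower side also reached further. By 4-fold on both arrays 78 probes were lower and 18 were higher, and by 8-fold 21 were lower and 1 was higher. The median log2 ratio was -1.48 among the lower probes and 1.40 among the higher ones. Near the 2-fold limit the weaker array read -1.0003 just inside it and -0.9987 just outside it on the lower side. A further 230 probes passed 2-fold on array a alone and 281 on array b alone, and 13 went past 2-fold in opposite directions. The counts shrank to 62 lower and 46 higher when each array was centred on its median in place of loess, and at 1.5-fold there were 835 lower and 875 higher probes.

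**Figure D1:**
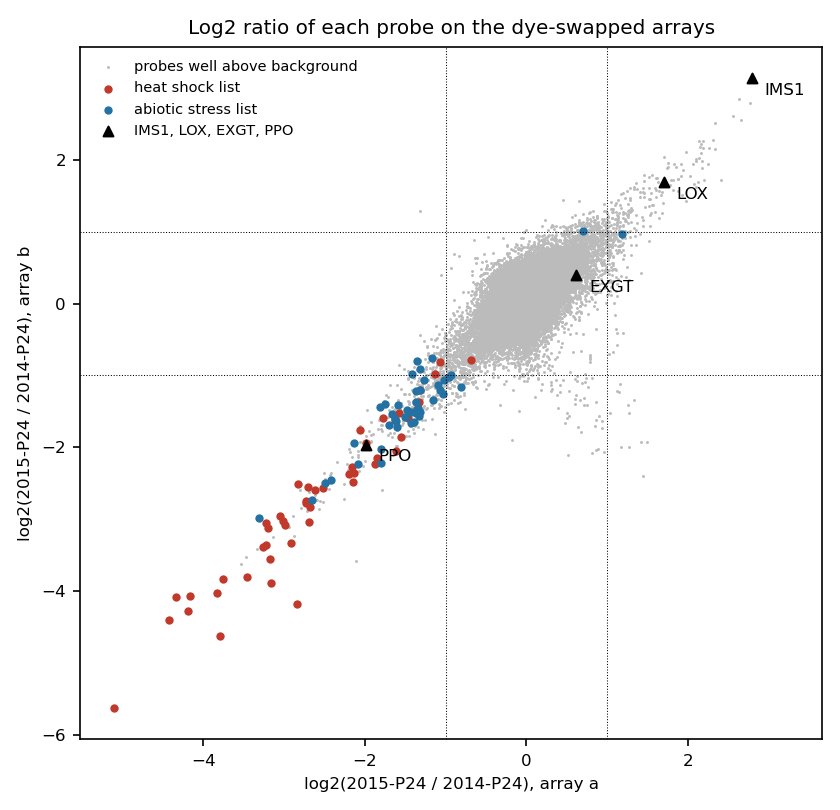
Log2 ratio of 2015-P24 over 2014-P24 on array a (x axis) and array b (y axis) for the 31606 probes well above background in grey, with the 48 genes of the heat shock list in red, the 44 of the abiotic stress list in blue and 4 other genes as triangles. Dotted lines mark 2-fold. The heat shock genes run along the diagonal down to -5.10 and -5.62, and IMS1 stands at the upper end with 2.80 and 3.13.

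Genes could be named mostly on the lower side, because the annotation at hand covered 820 probes, all lower in the study's selection. An annotation was at hand for 213 of the 334 lower probes and for 2 of the 174 higher ones. The sources name transcripts that the study had picked on these same arrays together with 4 others, so the direction of its lists is no independent evidence. The lists are described by their counts beside the background of 1.06% lower probes.

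All 48 genes of the heat shock list were below 0 on both arrays, against 28.2% of the 31606 probes, and 45 of the 48 were lower by the 2-fold rule. Their median log2 ratio was -2.70, which is 6.51-fold. Signals in 2015-P24 stayed well above background on both arrays for 42 of the 48, so most of these genes were measured, not lost, in the 2015 peel.

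Small HSPs bind unfolding proteins without ATP. The 20 genes of this group, among them 3 DNAJ-type co-chaperones, were lower by the rule without exception, with a median of -3.20 and values from -5.36 to -2.003. The lowest was a class I cytosolic small HSP, MD05G1240300 on chromosome 5. Its signals were 6.35 and 5.63 in 2015-P24, against 11.45 and 11.25 in 2014-P24, with ratios of -5.10 and -5.62 (41.1-fold). Its 2015-P24 signals lay at the very edge of what counted as above background, so its ratio rests on a dim 2015-P24 signal.

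Small HSPs of other compartments were lower as well. Plastid HSP21 (HSP25.4-P, MD13G1108500, chromosome 13), which guards chloroplast proteins, had signals of 8.46 and 8.35 in 2015-P24, against 12.65 and 12.63 in 2014-P24. Its ratios of -4.19 and -4.28 agree within the array spread, and the fold was 18.8. The small HSP22.0 of the endoplasmic reticulum read -4.42 and -4.41 from MD08G1249100 and -4.34 and -4.09 from MD15G1443700. The mitochondrial HSP23.6 (MD06G1060300) read -2.91 and -3.33. Cytosol, plastid, mitochondrion and endoplasmic reticulum were thus all represented among the lower probes.

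Bright class II genes met the ceiling of the scanner. HSP17.6-CII on chromosome 15 (MD15G1053800) had signals of 10.83 and 10.56 in 2015-P24, against 14.61 and 15.19 in 2014-P24, where 1 array had a saturated spot. The ratios were -3.79 and -4.63. The probe of the list for MD08G1068000 was saturated in 2014-P24 on 1 array too and read -2.84 and -4.18, the largest gap between arrays among the small HSPs. A different probe of that gene, with no saturation, read -3.53 and -3.62.

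The smallest ratio of the group belonged to MD11G1087200, a class I gene on chromosome 11. It was not well above background in 2015-P24 on either array, with 6.03 and 5.46 there against 7.88 and 7.61 in 2014-P24. Taken against the lowest signal that counted as above background, averaged over the arrays, it was 3.38-fold lower. Some probes with signals above that floor also failed the background test, so the fold is no strict lower bound. Its neighbours in name, MD11G1089300, MD11G1087100 and MD11G1089400, had mean ratios of -3.29, -3.80 and -4.11. Small HSP genes resemble each other, and a probe may also read its relatives, so ratios of single copies are uncertain.

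**Figure D2:**
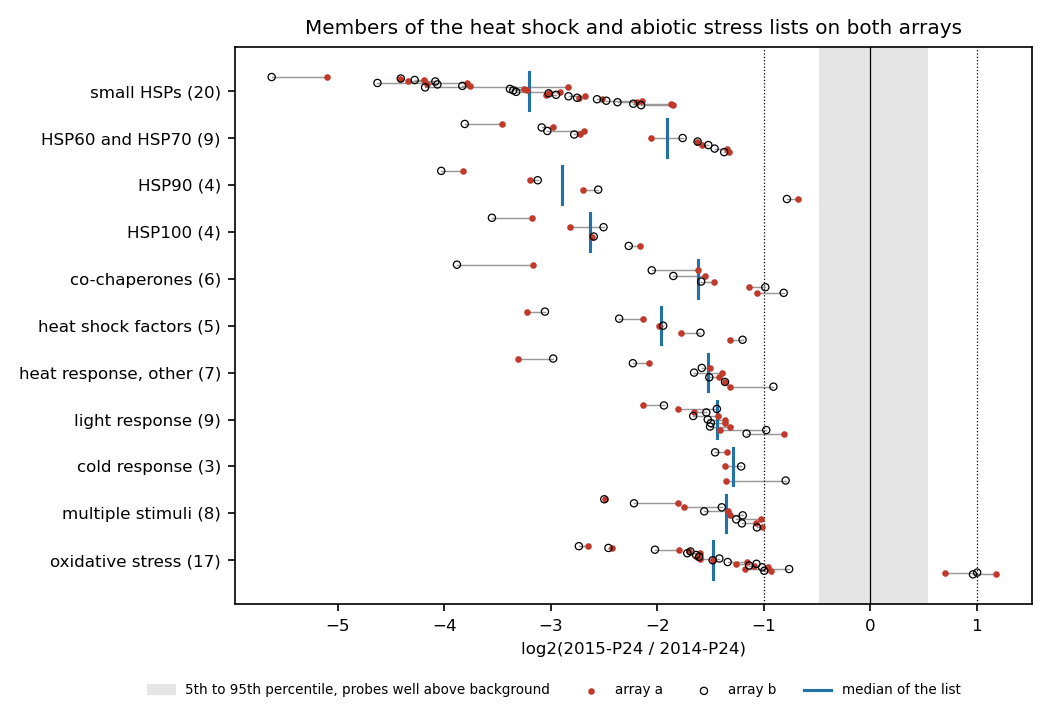
Log2 ratio of 2015-P24 over 2014-P24 (x axis) on array a (red) and array b (open) for each member of the 11 gene groups, with the group's median as a blue bar. The grey band holds the 5th to 95th percentiles of all 31606 probes, -0.47 to 0.54. Small HSPs spread from -5.36 to -2.003 in their means, and oxidative stress is the group with 2 genes right of 0.

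The ATP-driven chaperones were lower too. HSP60 and HSP70 genes, which fold and carry proteins, had a median of -1.91, and 9 of 9 passed the rule. HSP70-5 (MD15G1150500), a heat-inducible HSP70, had signals of 7.02 and 6.81 in 2015-P24, against 10.48 and 10.62 in 2014-P24, 12.4-fold apart. The mitochondrial-type HSP60 genes MD10G1170700 and MD05G1182500 averaged -1.41 and -1.35. HSP70-4 of MD17G1226000 was not well above background in 2015-P24 on either array and was 5.78-fold lower against that background floor.

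HSP90, which matures signalling proteins, divided by isoform. The 3 genes closest to the heat-inducible HSP90-1 averaged -3.93 (MD01G1208700), -3.16 (MD07G1279200) and -2.63 (MD00G1081900). MD01G1208700 had signals of 6.82 and 6.64 in 2015-P24, against 10.65 and 10.67 in 2014-P24, 15.2-fold apart. HSP90-4 (MD11G1037400), a cytosolic isoform that Arabidopsis keeps on without heat, did not pass the rule. It was bright in both harvests, 12.66 on each array in 2015-P24 against 13.35 and 13.44 in 2014-P24, with ratios of -0.68 and -0.78.

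HSP100 proteins pull aggregates apart. The 4 genes annotated as HSP101 averaged -3.36 (MD06G1201600), -2.66 (MD14G1211000), -2.61 (MD06G1201200) and -2.22 (MD14G1210600). For MD06G1201600 the signals were 10.16 and 10.07 in 2015-P24, against 13.34 and 13.62 in 2014-P24. A second probe of that gene averaged -1.80, which makes it the gene with the widest gap between probes, 1.57.

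Co-chaperones steer the large chaperones. Of 6 genes 4 passed the rule, and the median was -1.61. The BAG-type regulator MD16G1124100 had 5.99 and 5.23 in 2015-P24, not well above background on either array, against 9.16 and 9.11 in 2014-P24. Against the background floor it was 8.85-fold lower. The HSP70-HSP90 organizing genes MD04G1081900 and MD06G1065400 missed the rule, with -1.14 and -0.99 for the first and -1.07 and -0.81 for the second.

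Heat shock factors bind the promoters of these genes, those of class A as activators and most of class B, in Arabidopsis, as repressors. Of the factors on the list 5 of 5 passed the rule, with a median of -1.96. HsfA2, which prolongs heat responses in Arabidopsis, was read from both of its copies. MD15G1057700 had 6.53 and 6.57 in 2015-P24, against 9.75 and 9.63 in 2014-P24, an 8.82-fold difference. MD08G1064100 was not well above background in 2015-P24 on either array and was 4.35-fold lower against the background floor. HsfB1 (MD02G1171800) averaged -1.96, HsfA6b (MD03G1258300) -1.69 and HsfB2a (MD01G1198700) -1.26. These factors were dim. Only 2 of the 5 were above background on both arrays in 2015-P24, against 5 of 5 in 2014-P24.

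**Figure D3:**
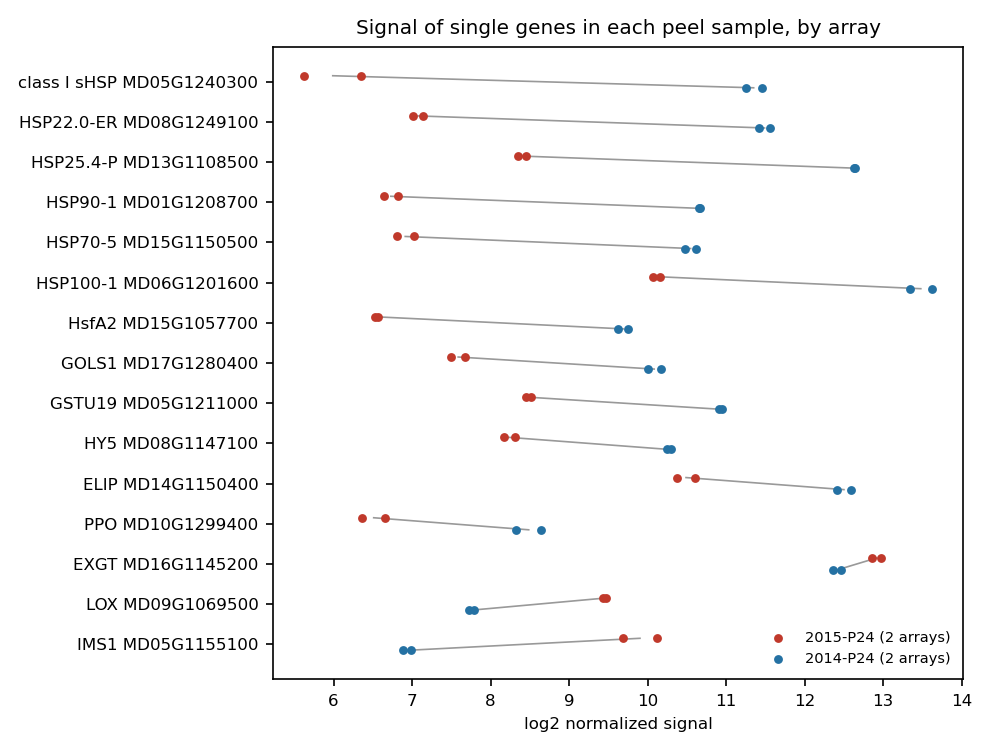
Log2 normalized signal (x axis) of 15 genes in 2015-P24 (red, upper points of each row) and 2014-P24 (blue, lower points), 1 point per array. The class I small HSP MD05G1240300 shows the widest gap, 6.35 and 5.63 in 2015-P24 against 11.45 and 11.25 in 2014-P24, and in EXGT, LOX and IMS1 alone the 2015-P24 points lie to the right.

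Outside the heat shock list, 35 further annotated probes named a chaperone or heat shock protein, chosen after their values were seen. Their median was -0.77, and 12 were lower by the rule. Over all 820 annotated probes, drawn from the study's lower transcripts, 211 were lower by the rule and the median was -0.66. Second probes of listed genes were among those 12. Among those that missed the rule were the HSP70 gene MD09G1212600, whose 3 probes averaged -0.92, -0.69 and -0.65, and the plastid chaperonin MD03G1124000, at -0.49 and -0.52.

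The abiotic stress list holds 44 genes that respond to heat, light, cold or oxidants. Of these 35 were lower by the rule, 42 were below 0 on both arrays, and the median was -1.45 (2.72-fold). No member was higher by the rule.

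The 7 further heat-response genes had a median of -1.53, and 6 passed. ROF2 (MD04G1022400), a prolyl isomerase that binds HSP90 and HsfA2 in Arabidopsis, had 6.51 and 6.64 in 2015-P24, against 9.82 and 9.61 in 2014-P24, 8.83-fold apart. Its relative ROF1 read -1.36 on each array from MD10G1156300, and -1.31 and -0.91 from MD05G1166200, which missed the rule. The coactivator MBF1C, needed for heat tolerance in Arabidopsis, averaged -1.54 (MD02G1050200) and -1.47 (MD15G1187400).

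The 9 light-response genes had a median of -1.44, and 7 passed. HY5 (MD08G1147100), a bZIP factor of the light response, had 8.17 and 8.31 in 2015-P24, against 10.30 and 10.24 in 2014-P24, 4.10-fold apart. MYB12, which activates flavonol synthesis, averaged -1.62 (MD11G1316800) and -1.60 (MD03G1297100), with -1.10 from a second probe of MD03G1297100 that missed the rule. PAL1 (MD12G1116700), the entry enzyme of phenolic synthesis, read -1.36 and -1.53 from the probe of the list, while a second probe averaged -0.69. That second probe was dim, with 6.23 and 6.08 in 2015-P24, against 6.84 on each array in 2014-P24. In 2015-P24 it was well above background on 1 array only. The plastid sugar phosphate carrier GPT2 (MD10G1316100) read -0.81 and -1.16, and the plastid sigma factor SIGE (MD07G1285600) -1.41 and -0.98. Neither passed.

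Genes tied to several stimuli included the early light-induced protein ELIP (MD14G1150400), which protects chloroplasts in strong light. It had 10.60 and 10.38 in 2015-P24, against 12.41 and 12.59 in 2014-P24, 4.03-fold apart, and its second probe averaged -2.43. GOLS1 (MD17G1280400), the first enzyme of raffinose sugar synthesis, read -2.49 and -2.50, and a second probe averaged -2.47. The zinc finger factor ZAT12 (RHL41, MD03G1099300) averaged -1.26, SAG21 (MD03G1289900) -1.45 and the dehydrin COR47 (MD15G1253900) -1.14. All 8 genes of this group passed, and the median was -1.35. Of the 3 cold genes, AATP1 (MD09G1043700) averaged -1.40 from the probe of the list, while its 3 other probes averaged -0.95, -0.86 and -0.63 and missed the rule. Of the remaining cold genes, a regulator of chromosome condensation (MD07G1204100) -1.29 and the iron store ferritin FER1 (MD04G1164500) -1.08, which missed the rule on array b at -0.79.

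Oxidative stress genes were the most mixed group. Of 17 genes 12 passed, with a median of -1.48. Glutathione S-transferases, which conjugate glutathione to reactive compounds, ranged over the tandem copies of GSTU19 on chromosome 5. MD05G1211000 had 8.52 and 8.45 in 2015-P24, against 10.94 and 10.91 in 2014-P24, 5.43-fold apart, while MD05G1211100, MD05G1210700 and MD05G1210000 averaged -1.91, -1.51 and -0.99. The GSTU8 copies MD04G1139400 and MD04G1139500 averaged -1.63 and -1.66. The glutaredoxin MD06G1110300 read -1.70 and -1.69. Ascorbate peroxidase APX2 (MD04G1104900), which removes hydrogen peroxide, read -1.17 and -0.76 and did not pass.

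A pair of genes in that group lay above 0 on both arrays. The gibberellin-regulated cell wall protein GASA14 (MD17G1039200) had 9.96 and 9.71 in 2015-P24, against 8.78 and 8.74 in 2014-P24, with ratios of 1.18 and 0.97. The barwin-related MD02G1013800 read 0.70 and 1.00 and was not well above background in 2014-P24 on either array. Neither passed the rule.

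Genes that bear on browning, aroma and the cell wall went both ways. The polyphenol oxidase probe PPO (MD10G1299400) had 6.65 and 6.37 in 2015-P24, against 8.64 and 8.33 in 2014-P24, with ratios of -1.99 and -1.96. The annotation of this gene is divided, since its nearest Arabidopsis match is a GDSL lipase. IMS1 (MD05G1155100), of the isopropylmalate and citramalate synthase family that feeds ester aroma, was the named gene with the largest positive ratio. It had 9.68 and 10.12 in 2015-P24, against 6.89 and 6.99 in 2014-P24, 7.81-fold apart. The lipoxygenase LOX (MD09G1069500), which oxidises fatty acids on the way to aroma aldehydes, had 9.43 and 9.47 in 2015-P24, against 7.73 and 7.78 in 2014-P24, 3.24-fold apart. The xyloglucan enzyme EXGT (MD16G1145200) read 0.62 and 0.40 and did not pass.

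Further annotated genes outside both lists, most of them picked after their values were seen, were lower by the rule. S-adenosylmethionine decarboxylase, a key step of polyamine synthesis, was read from MD16G1057400 by 3 probes with means of -2.70, -2.60 and -1.99. The brightest had 9.38 and 9.33 in 2015-P24, against 11.97 and 11.93 in 2014-P24. RING-type ubiquitin ligases averaged -3.38 (MD13G1071200) and, for the 2 probes of MD16G1071900, -2.64 and -2.39. They were the lowest of 44 probes for ubiquitin ligases and proteases, of which 8 passed, with a median of -0.58. The xyloglucan endotransglucosylase XTH16 averaged -1.62 (MD17G1140000) and -1.41 (MD09G1152600). The ethylene-forming enzyme MD09G1114800, the last step to the ripening hormone, read -1.18 and -1.33. SAG29, a sugar transporter that ageing leaves of Arabidopsis switch on, averaged -2.10 (MD16G1125300) and -1.92 (MD13G1124300).

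Bet v 1-like allergens, small defence-related proteins that include the apple allergen Mal d 1, were picked after their values were seen. Of 14 probes annotated as Bet v 1, Mal d 1 or MLP, 10 were lower by the rule and 14 were below 0 on both arrays, with a median of -1.33 and a range from -1.62 to -0.25. These genes resemble each other, so the probes may share targets. Of all 820 annotated probes, drawn from the study's lower transcripts, 211 were lower by the rule and 800 were below 0 on both arrays. A value below 0 among the allergens is thus no finding of its own.

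Lists made by keyword from the annotation, which overlap the stress lists, stand beside the 211 of 820 annotated probes that passed, with a median of -0.66. Of 22 antioxidant enzyme probes 10 passed, with a median of -0.997, and of 10 probes for phenolics and flavonoids 4 passed, with a median of -1.05. Both counts come largely from genes described above, the glutathione S-transferases, PAL1 and MYB12. Of 10 ethylene and ripening probes 3 passed (median -0.78), of 9 cell wall probes 3 (median -0.66), and of 7 sugar and starch probes 3 (median -0.49). The ethylene count includes the metallopeptidase EGY3 (MD10G1110200), matched by its name alone. A probe for an invertase or pectin methylesterase inhibitor (MD07G1255400) is counted in the cell wall list and again in the sugar list. The 2 aroma probes of 10 that passed (median -0.63) were an acyltransferase of broad family, MD05G1219000, at -1.40, and a protein with an NC domain, MD01G1232800, at -1.56. Of 4 cold probes 3 passed (median -1.81), of 6 photosynthesis probes 2, both of ELIP (median -0.56), and of 3 cuticle and wax probes 1, that of KCS13 (median -0.82).

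Other keyword lists had few or no probes past the rule. Of 50 probes annotated as receptors or kinases 2 passed, with a median of -0.51, and these were a glutamate receptor (MD05G1305700, -1.55) and a chromosome condensation regulator (MD07G1204100), not kinases. Of 11 probes matched by ribosome keywords none passed, with a median of -0.29. They include an RNA processing factor and a ubiquitin hydrolase (MD12G1166700), not ribosomal proteins. Of 5 iron probes none passed, with a median of -0.65. The terpene cyclase genes MD09G1168200 and MD09G1168300 averaged -1.05 and -0.93 and did not pass. No probe was annotated for lipid bodies. These probes also come from the study's table of lower transcripts, so a value below 0 is no finding of its own.

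The higher probes remain mostly without names. The largest ratio was that of MDP0000209432, with 9.77 and 9.98 in 2015-P24, against 6.53 and 6.92 in 2014-P24, and ratios of 3.24 and 3.06. MDP0000881409 had signals of 11.51 and 11.44 in 2015-P24, against 8.74 and 8.65 in 2014-P24, and ratios of 2.77 and 2.80. Of the 174 higher probes 18 were not well above background in 2014-P24 on either array. Of the 334 lower probes 27 were not so in 2015-P24.

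The apple genome carries an old duplication, and many genes therefore have a copy on a second chromosome. In the lists, 13 Arabidopsis genes were matched by exactly 2 apple genes on different chromosomes. Both copies had to be on the study's lists, so a pair with an unchanged copy could hardly appear. Of all 92 list genes 80 passed the rule. Both copies passed the rule in 10 of the 13 pairs, and the copies differed by a median of 0.20, about the spread of a probe between arrays. The array values of the copies did not overlap in 8 pairs, among them MD05G1309500 and MD10G1288100 with a mean difference of only -0.14. With 2 array values per copy such a count says little, and its share among other probes was not computed. These values take 1 probe for each copy. For HsfA2 no exact gap can be given. The copy on chromosome 15 averaged -3.14, and that on chromosome 8 has only the 4.35-fold taken against the background floor. Where both copies were above background in both harvests, the DUF775 genes had the widest gap, with -2.15 on chromosome 9 and -1.53 on chromosome 17. The MYB12 copies averaged -1.62 on chromosome 11 and -1.60 on chromosome 3, but a second probe of the copy on chromosome 3 averaged -1.10 and missed the rule.

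**Figure D4:**
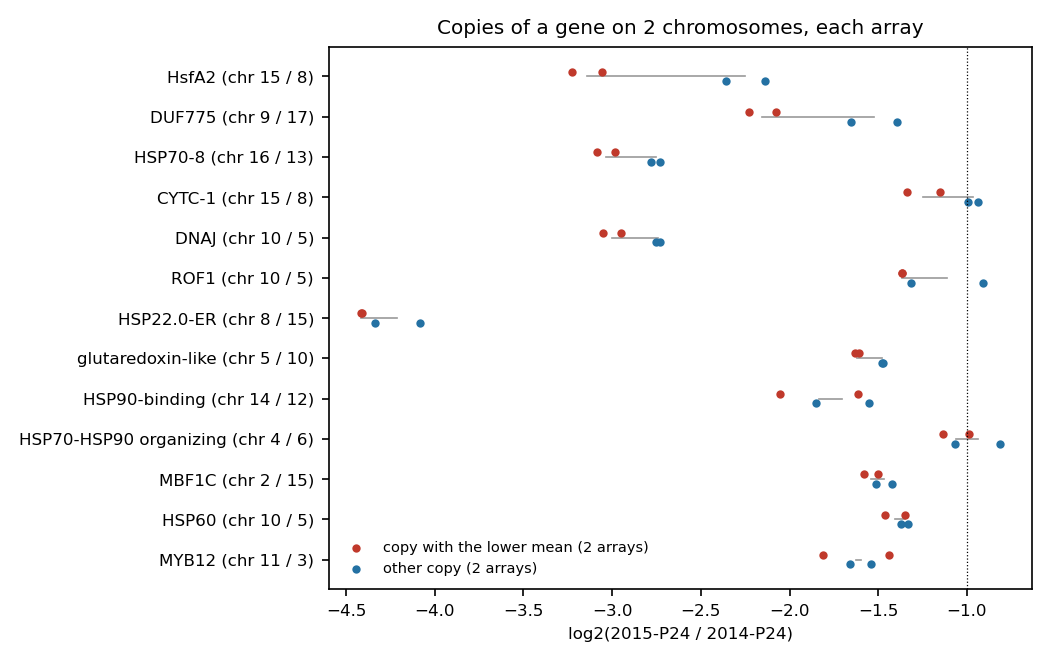
Log2 ratio of 2015-P24 over 2014-P24 (x axis) on each array for 13 gene pairs, with the copy of the lower mean in red and the other in blue. The DUF775 copies stand at -2.15 and -1.53, and the blue points of HsfA2 come from a copy not well above background in 2015-P24 on either array.

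Probes of the same gene could be compared only among those that the study had picked as lower. Their agreement is therefore partly set by that choice. Of 45 annotated genes with 2 or more sense probes above background, the probes of a gene spanned a median of 0.16, and 10 genes spanned more than 0.5. Of the 23 such genes with a lower probe, all probes were lower in 17.

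Fewer antisense than sense probes were above background, 5391 against 26215. Of the 5391 antisense probes 30 were lower, or 0.556%, and 23 were higher, or 0.427%. Of the 304 lower sense probes, 39 had an antisense partner above background, of which 10 were lower. The class II small HSP MD08G1068200 averaged -1.79 on the antisense strand and -3.02 on the sense strand. MD14G1014200, a gene of unknown function, read 0.10 and 0.36 on the antisense strand, while its sense probe averaged -2.69.

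Of 289 probes named for microRNAs 13 were above background and none passed the rule, with means from -0.39 to 0.93. The largest was Md_miR858a, with 8.43 and 8.56 in 2015-P24, against 7.69 and 7.44 in 2014-P24, and ratios of 0.74 and 1.13. In Arabidopsis this microRNA acts on MYB transcripts, MYB12 among them. In 2015-P31 over 2014-P36 the Md_miR858a probe read -0.21 and -0.03, while the MYB12 genes averaged -0.81 (MD11G1316800) and -0.80 (MD03G1297100). A link between them was not tested. Whether such a probe reads the precursor or the mature form was not tested.

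2015-P31 over 2014-P36 compares the same years with no peel sample in common. There 2.63% of the probes above background were lower by the rule and 0.229% higher. Of the 334 probes lower in 2015-P24, 258 were above background there, and the others could not pass the rule. Of all 334, 91 passed the rule there as well and 298 were below 0 on both arrays. Their median was -1.48 in plot 24 and -0.75 there. Of the 174 higher ones 20 passed and 143 were above 0 on both arrays, with a median of 1.40 in plot 24 and 0.61 there. Some of the higher ones were not above background there either. The share of all probes below or above 0 on both of those arrays is not given, so the counts by sign have no background beside them. Those arrays were the poorer ones. Repeated bright spots varied with an SD of 0.083 and 0.099 on the arrays of plot 24, against 0.27 and 0.55 there, where one channel of each harvest had 10.8% and 13.1% of probes above background. The probes were picked by their ratios in plot 24, so smaller ratios elsewhere are expected from that choice alone. The part of array quality in the smaller ratios was not tested.

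The heat shock list had a median of -2.70 in plot 24 and -1.22 in 2015-P31 over 2014-P36, where 22 of 48 passed. In 45 of the 48 both arrays of plot 24 lay below both arrays of the other orchards, against 5566 of the 31606 probes. The study picked the list with these arrays among its data, so the count is no independent evidence. For the abiotic stress list the medians were -1.45 and -0.70, and 7 of 44 passed there. The difference between the comparisons could not be tested with 1 sample per group. It was wide for HSP22.0-ER of MD08G1249100, with -4.42 and -4.41 in plot 24 but -0.19 and -0.82 in the other orchards. For HSP101 of MD06G1201600 it was narrow, with -3.18 and -3.55 in plot 24, and -3.73 and -2.80 in the others.

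**Figure D5:**
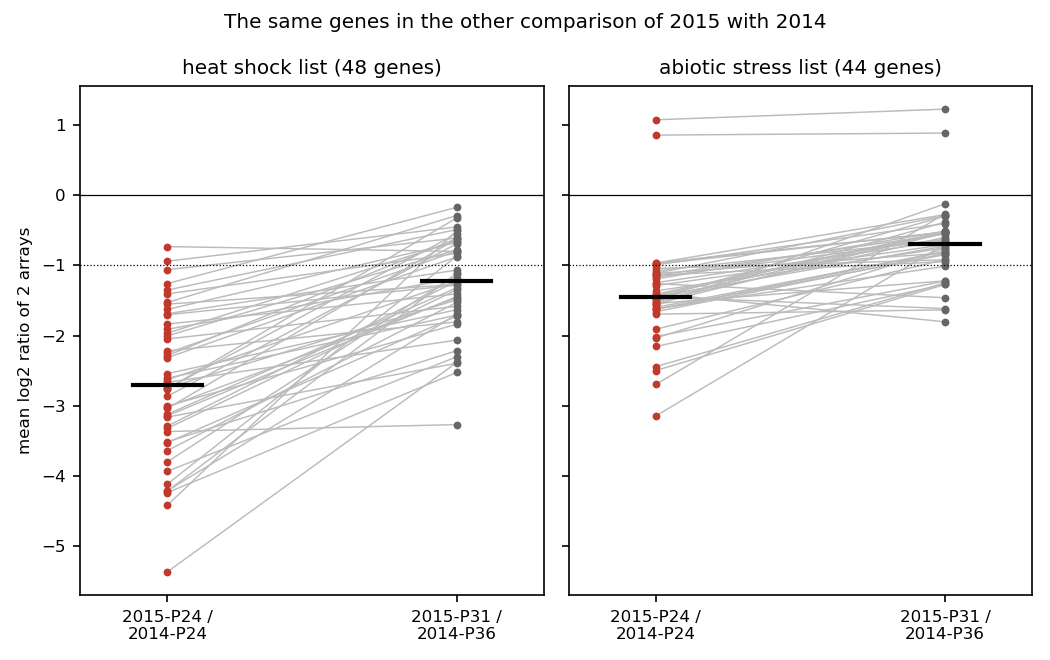
Mean log2 ratio (y axis) of each gene of the heat shock list (left, 48 genes) and the abiotic stress list (right, 44 genes) in 2015-P24 over 2014-P24 (red) and in 2015-P31 over 2014-P36 (grey), joined by lines, with black bars at the medians. The medians are -2.70 and -1.22 for heat shock and -1.45 and -0.70 for abiotic stress.

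Of the 80 list genes past the rule in plot 24, 29 passed it in the other orchards. Just 4 were within 0.5 of 0 on both arrays there: HSP10 (MD13G1024100), HsfB2a (MD01G1198700), the metallopeptidase EGY3 (MD10G1110200) and MD14G1014200, whose plot 24 ratios of -2.65 and -2.74 stood beside -0.30 and -0.23. Conversely, 4 negative genes had a lower mean in the other orchards, namely HSP90-4, AATP1, ZAT12 and SAG21. SAG21 averaged -1.45 in plot 24 and -1.61 in the others, but its arrays overlapped, with -1.33 and -1.56 against -1.90 and -1.33. Those of HSP90-4 overlapped too, with -0.68 and -0.78 in plot 24 against -1.09 and -0.52 in the others. The array values of AATP1 and ZAT12 did not overlap. For AATP1 the probe of the list averaged -1.40 and -1.80, and its 3 other probes -0.95, -0.86 and -0.63 in plot 24 and -0.98, -0.66 and -0.49 in the others.

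2017-P31b over 2014-P24 uses the same 2014 peel, so its ratios are not independent of those above. There 1.51% of the probes above background were lower by the rule and 1.08% higher. The heat shock list had a median of -2.70 in 2015-P24 and -2.80 in 2017-P31b, where 47 of 47 measured genes passed. The abiotic stress list had medians of -1.45 and -1.57, and 28 of 42 measured genes passed in 2017-P31b. Of single genes, GOLS1 averaged -2.50 in 2015-P24 and -1.74 in 2017-P31b, and SAG21 -1.45 and -0.34. The S-adenosylmethionine decarboxylase probe at -2.70 in 2015-P24 averaged -0.87 in 2017-P31b and -1.97 in 2015-P31 over 2014-P36. HY5 averaged -2.03 in 2015-P24 and -3.16 in 2017-P31b. For PAL1 (MD12G1116700) the probe of the list averaged -1.44 in 2015-P24 and -3.60 in 2017-P31b, and the dim second probe -0.69 and -0.59. LOX averaged 1.697 in 2015-P24, 0.26 in 2017-P31b and 0.37 in 2015-P31 over 2014-P36. IMS1 averaged 2.96, 1.92 and 1.72 in the same order.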

How the data were processed

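For each channel, the authors deposited spot and local background intensities on a linear scale, read by Agilent Feature Extraction, with marks for saturated and outlier spots. The intensity labelled as processed was the mean pixel intensity, with no background subtracted. The authors also deposited log2 values per probe and channel, made with limma per the labels, and these served as an alternative. Their exact background method is not given in the sources used here.

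Channels were paired by shared slide and position. Intensities were background-corrected by normexp (offset 50) and loess-normalized within arrays (span 0.3, 4 iterations) in limma 3.58.1 under R 4.3.3, with control and outlier spots at weight 0 and saturated spots kept. The offset shrinks ratios of dim probes. Spots of a probe and then both arrays were averaged. Signals per channel came after Aquantile over the 6 arrays. A spot counted as well above background when its mean minus the background median was over 2.6 times the pixel SD of the background. Folds against the background floor set the brighter sample's mean signal against the dimmest signal that still counted as above background. Where the probe's own signal was higher, that signal was used instead. Some probes brighter than this floor failed the background test, so such folds are no strict lower bounds. The precision is limited by 1 pool of peel per group and 2 arrays. The calculation was tested on simulated data.

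Groups came from year and plot in the sample titles. The array and plant material parts of the methods name plots 31 and 36 in opposite years, and the labels were followed. Genes were named through the study's tables by the array's gene model names, and their positions are those in the gene names. The rule for naming genes took all members of the 2 stress lists, read from the tables' probe or the sense probe, the 15 largest and 15 smallest ratios past the rule, and up to 6 annotated members of each keyword list. The keyword lists covered ripening, cell wall, terpenes, phenolics, antioxidants, aroma, cuticle, photosynthesis, cold, sugar, ribosome, iron, kinases and lipid bodies. Unnamed probes are given for the largest ratios only. Members and lists were chosen with earlier results of these data known. The transcript table used for annotation was shortened and holds 820 probes, all lower in the study's selection. The study's own fold changes and p-values were not used. Figures were drawn with matplotlib 3.10.9.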

Additional observations from a re-analysis of the deposited data

How the results depend on the processing

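Both list medians stayed below 0 under every alternative run. The counts depended on the settings: median centring in place of loess left 46 higher and 62 lower probes (174 and 334 with loess), plain background subtraction gave 414 and 654, a 1.5-fold limit 875 and 835, and a 4-fold limit 18 and 78. Lower probes outnumbered higher ones except at 1.5-fold and in the limma test over both arrays. The median of the heat shock list was -3.17 with plain subtraction and -2.38 with median centring, and that of the abiotic stress list -1.70 and -1.12. With a single array (without replicate a or b) the counts were 316 to 341 higher and 486 to 494 lower, and the list medians -2.70 to -2.68 and -1.47 to -1.38. The methods' limma test over the 2 arrays, in which the array is a replicate block by construction, gave 905 higher and 870 lower probes after Benjamini-Hochberg adjustment at 0.05. It measures only the spread between arrays of the same RNA, and its share of higher calls is above that of the 2-fold rule. Its pairing comes from the hybridisation, so no fit without it was run. The other alternatives (no background correction, median spot intensity, outlier spots kept, the authors' values, other filters on dim probes) left the counts within 1.5 times, the heat shock median between -2.81 and -2.70 and the abiotic stress median between -1.502 and -1.45. The medians reported use every member of a list, so dropping the filter on dim probes gave no value of its own. Of 141 named probes none changed sign, but the ratio moved by more than 1 SD between arrays for 133 under median centring, 75 under plain subtraction, 33 with the authors' values and 26 without background correction. Dim 2015-P24 signals and saturated 2014-P24 spots limit the largest ratios.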
